A study of Mus musculus with 17 samples.

Results

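The late response of Nur77-deficient macrophages to lipopolysaccharide (LPS), the endotoxin of Gram-negative bacteria, was described from ATAC-seq peak lists, in which a transposase cuts accessible DNA and peaks mark where cuts pile up. The comparison used 6 of the 17 peak lists of the series, namely 3 of Nur77-KO bone marrow-derived macrophages (BMDMs) stimulated with 100 ng/ml LPS for 18 h and 3 of untreated Nur77-KO BMDMs. Cells came from male C57Bl6/J mice aged 6 to 12 weeks and were differentiated for 7 days in L929-conditioned medium. Stimulated and control samples both lack Nur77. The labels give the KO genotype as "cre". By the study's methods the deletion is a whole-body knockout, made by crossing loxP-flanked Nr4a1 mice to CMV-Cre mice, with littermates as the WT. The methods add that the Nur77-KO animals used had been bred free of Cre expression. WT BMDMs at 0 and 18 h (3 lists each) and KO BMDMs at 1 h (3 lists) served for comparison. The sources do not say whether replicates came from separate mice, so p-values measure only the spread between samples, which may be technical.

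Each list was reduced to 1 entry per interval and ranked by the −log10 p-value, and the 27429 best peaks of each were kept, this being the length of the shortest list. Kept peaks of the 6 lists were merged into 31512 sites, each with a peak in at least 2 lists. A site was gained at 18 h when all 3 KO 18 h lists and none of the 3 KO 0 h lists had a kept peak there, and lost in the opposite case. There were 1003 gained sites (3.18%) and 1494 lost sites (4.74%), while 13668 sites (43.4%) had a peak in all 6 lists and 15347 (48.7%) were mixed. With windows of 150 bp on either side of each peak summit in place of intervals, 1061 of 37362 sites were gained (2.84%) and 1944 were lost (5.2%). By these summit windows 975 of the 1003 gained sites and 1475 of the 1494 lost sites were called as well. Without 18 h replicate 1, the list with narrow peaks, 2067 sites were gained and 2002 lost, and without 0 h replicate 1, the longest list, 1266 and 1951, the rule being easier to meet with fewer lists.

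The 6 lists differed in size and shape. The 0 h lists held 70397, 37514 and 27429 intervals in replicates 1 to 3, and the 18 h lists 36136, 29568 and 32187. The median width of kept peaks was 1086, 664 and 462 bp at 0 h and 158, 562 and 520 bp at 18 h, so replicate 1 at 18 h had the narrowest peaks and replicate 1 at 0 h the broadest. The last kept peak held 49, 10 and 4 reads at its summit in the 0 h lists and 6, 4 and 7 in the 18 h lists. The files give no total read number, and the part of these differences in any gain or loss was not tested. Of the 10 macrophage markers, 9 or 10 had a promoter peak in each list, with Adgre1 and Spi1 among them in every list. Missing were Csf1r in 0 h replicate 1 and Cd68 in 0 h replicate 2. Of the 5 T cell markers only Cd3d had a promoter peak, and 0 to 2 markers each of B cells, erythroid cells, granulocytes and fibroblasts did. One of these, the promoter of the B cell marker Ms4a1, was itself a gained site, with ranks of 10041, 14833 and 14854 at 18 h and 30068 and 33998 in 0 h replicates 1 and 2. A change in the share of cells that open a site and a change in accessibility per cell cannot be told apart in such bulk samples.

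LPS is sensed by the receptor TLR4, which activates NF-kB and AP-1 and, with a delay through secreted type I interferon, the STAT and IRF factors that bind interferon-stimulated response elements. Macrophage enhancers are held open by PU.1 together with C/EBP and AP-1 factors, and stimulation opens further, so-called latent enhancers. Nur77, encoded by Nr4a1, is an orphan nuclear receptor that LPS induces in macrophages within the first hours and that restrains inflammatory genes.

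Sequences of 201 bp around the summit are shown for 6 of the best-ranked sites that carry a motif searched here, 3 gained and 3 lost, since they show which elements lie under the peak tops. They are from the forward strand of the RefSeq GRCm38 genome, the assembly of mm10, and capitals mark the motifs. Among gained sites, the window near Ptges (chr2:30925272-30925472) holds an AP-1 element, that at the Ccl5 promoter (chr11:83530477-83530677) a PU.1 and an NF-kB element, and that in an intron near Rbm47 (chr5:66041407-66041607) a pair of NF-kB elements. Among lost sites, the windows near Tiam1 (chr16:90177567-90177767) and Inpp5f (chr7:128622665-128622865) each hold 1 AP-1 element, and that near Cttnbp2nl (chr3:105054973-105055173) a PU.1 and a pair of AP-1 elements.
Ptges: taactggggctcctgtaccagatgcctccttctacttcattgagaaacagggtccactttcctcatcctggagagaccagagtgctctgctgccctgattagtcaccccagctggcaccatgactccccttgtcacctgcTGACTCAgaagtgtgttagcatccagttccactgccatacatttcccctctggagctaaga
Ccl5: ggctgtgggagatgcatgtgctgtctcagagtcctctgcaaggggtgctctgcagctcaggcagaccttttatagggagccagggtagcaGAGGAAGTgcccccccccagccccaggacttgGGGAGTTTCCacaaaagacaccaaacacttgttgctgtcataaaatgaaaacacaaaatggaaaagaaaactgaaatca
Rbm47: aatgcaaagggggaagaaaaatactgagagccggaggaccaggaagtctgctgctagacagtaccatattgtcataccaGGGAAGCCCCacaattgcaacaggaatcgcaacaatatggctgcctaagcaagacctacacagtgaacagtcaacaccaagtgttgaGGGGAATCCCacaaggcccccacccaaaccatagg
Tiam1: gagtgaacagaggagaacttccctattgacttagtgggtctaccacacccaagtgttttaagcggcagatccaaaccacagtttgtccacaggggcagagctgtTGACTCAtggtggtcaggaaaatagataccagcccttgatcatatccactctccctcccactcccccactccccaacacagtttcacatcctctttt
Cttnbp2nl: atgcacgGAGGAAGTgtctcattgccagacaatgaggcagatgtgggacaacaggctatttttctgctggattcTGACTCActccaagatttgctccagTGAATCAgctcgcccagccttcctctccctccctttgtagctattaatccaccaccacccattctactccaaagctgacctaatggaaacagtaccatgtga
Inpp5f: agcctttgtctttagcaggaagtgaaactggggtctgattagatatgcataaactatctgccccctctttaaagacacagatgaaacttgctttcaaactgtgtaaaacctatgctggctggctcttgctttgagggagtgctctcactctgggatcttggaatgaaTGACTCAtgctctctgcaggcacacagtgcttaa

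The best-ranked gained sites included those near Ptges, Ccl5, Mx1, Ifit3 and Acod1, each named by the nearest protein-coding start, which need not be the gene a site acts on. The site near Ptges (chr2:30924826-30925631), the inducible prostaglandin E synthase, ranked 1590, 2975 and 2356 in the 18 h lists, against rank 44556 in replicate 1 and no peak in replicates 2 and 3 at 0 h. It lies 22075 bp upstream of the Ptges start, in an intron of a neighbouring gene. At the Ccl5 promoter (chr11:83529887-83530974), 59 bp upstream of the start of this T cell and monocyte attractant, the ranks at 18 h were 3536, 3797 and 1012. None of the 0 h lists, in full, had a peak there. The promoter of Acod1 (chr14:103046488-103048335), the enzyme that makes itaconate, ranked 5614, 3799 and 6998 at 18 h and was likewise absent from every full 0 h list. An intronic site near Rbm47, an RNA-binding protein gene, ranked 5721, 3742 and 4157 and had no peak in any full 0 h list. The same held at Pigk, encoding a GPI transamidase subunit, with ranks of 2599, 1953 and 5421, and at a Cog4 intron with 5949, 4799 and 6066. Near E2f1, a cell cycle transcription factor, the site 4481 bp upstream ranked 912, 5478 and 5756 at 18 h and 35657 in 1 of the 0 h lists. Ttc39c and AA467197 completed the 10 best. The Ttc39c site also holds an NF-kB motif and ranked ahead of that near Rbm47, but its sequence was not used here. At the named sites the worst 18 h rank was better than any 0 h rank, as the choice of sites requires.

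**Figure D1:**
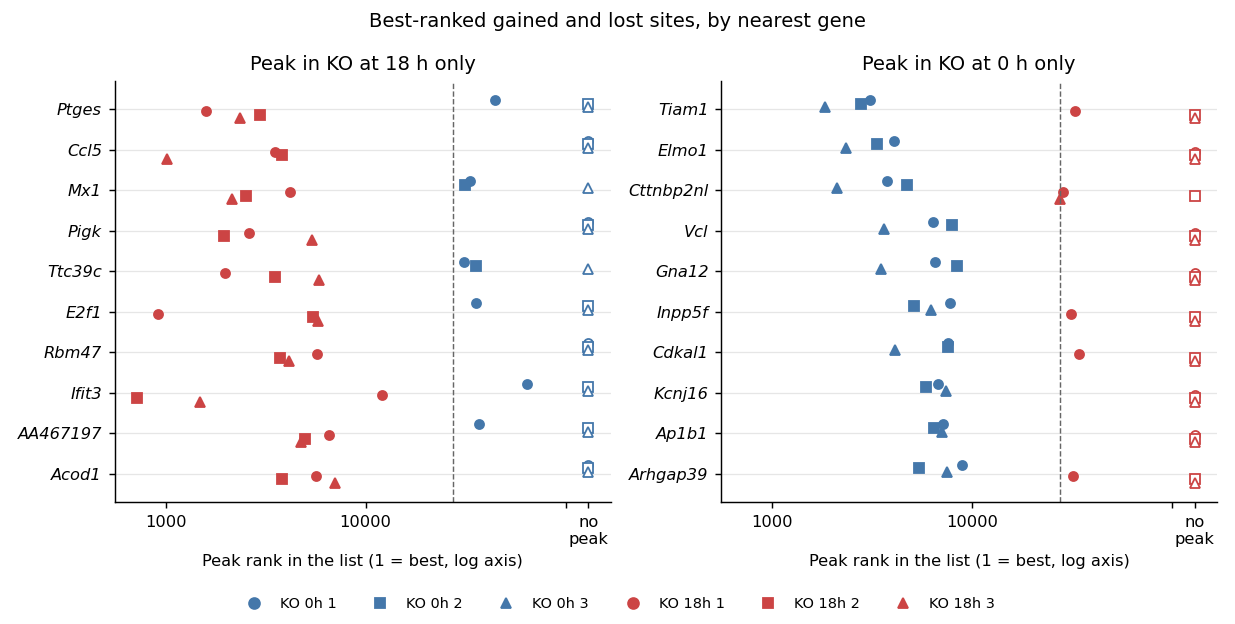
Rank of the peak (log axis, 1 is the best) in each deposited KO list at the 10 best-ranked gained sites (left) and lost sites (right), named by nearest gene. Blue symbols are the 0 h lists, red symbols the 18 h lists, open symbols at the right edge mark lists with no peak, and the dashed line is the 27429 peaks kept. Several gained sites have a 0 h peak in replicate 1 beyond the line, such as Ptges at rank 44556, while Ccl5 and Elmo1 have none in any list of the other side.

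Most gained sites were thus not closed in every 0 h list but fell outside its best peaks. The full 0 h lists had a peak at 811, 248 and 0 of the 1003 gained sites in replicates 1 to 3, and replicate 3, whose list was kept whole, could add none. Sites with no peak in any full 0 h list numbered 192 (19.1% of the gained). The full 18 h lists held peaks at 293, 104 and 266 of the 1494 lost sites, and 938 lost sites (62.8%) had no peak in any of them. As these lists reach little beyond the 27429 kept peaks (36136, 29568 and 32187 intervals), while the 0 h lists reach up to 70397, the shares of gained and lost sites absent from full lists cannot be compared.

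Interferon-stimulated genes stood on the gained side. Of 42 such genes nearest to a site, 13 had a gained site and none a lost one, where 6.63% of all 12960 genes nearest to a site had a gained and 10.2% a lost one. Counted by sites, 15 of 112 were gained and 0 were lost. Of the 112 sites, 56, 60 and 53 had a kept peak in the 0 h lists and 77, 104 and 102 in the 18 h lists (up to 53.6% at 0 h, and 68.8, 92.9 and 91.1% at 18 h), against 84.0, 80.2 and 74.8% and 66.1, 75.1 and 76.4% over all 31512 sites. Every 18 h list was above every 0 h list, with replicate 1 at 18 h the lowest of its group, whereas over all sites 18 h lists tended to the lower values. The 112 sites were built from these KO lists and include the 15 gained ones, so part of this separation follows from the choice. In the WT lists, not used to build the sites, the shares were 46.4, 45.5 and 49.1% at 0 h and 89.3, 84.8 and 87.5% at 18 h. Over all sites the WT shares were 80.9, 80.4 and 82.9% at 0 h and 81.9, 79.4 and 78.7% at 18 h. Near Mx1, an antiviral GTPase, a 15264 bp wide merged site ranked 4173, 2520 and 2142 at 18 h and 33128 and 31439 in 0 h replicates 1 and 2. The site 6213 bp upstream of Ifit3, whose product binds viral RNA, ranked 12133, 720 and 1477 at 18 h. A site at Cmpk2, a mitochondrial nucleotide kinase gene next to Rsad2, ranked 9832, 3455 and 5029 with no peak in any full 0 h list. The promoter of Oasl1, a member of the oligoadenylate synthetase family, ranked 14373, 5046 and 2141 at 18 h.

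**Figure D2:**
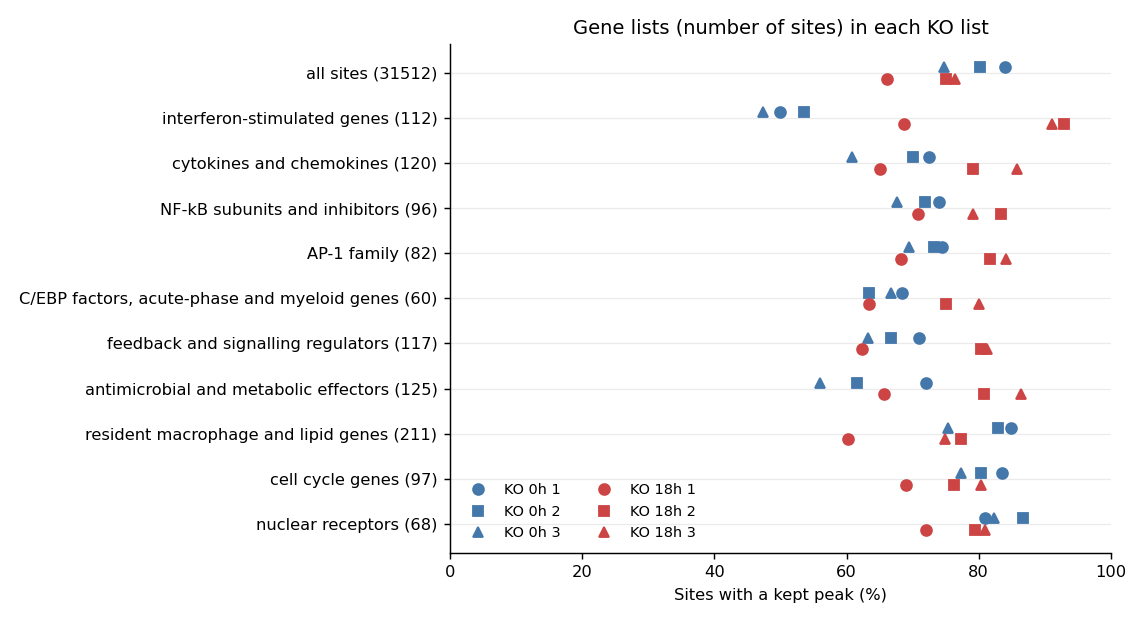
Percent of the sites nearest to the genes of each list that had a kept peak, in each KO list (blue 0 h, red 18 h, symbols by replicate), with the number of sites in brackets. Interferon-stimulated genes show separate groups, 47.3 to 53.6% at 0 h and 68.8 to 92.9% at 18 h, whereas 0 and 18 h overlap for all sites. The sites were built from these same lists and include the gained ones, so part of the separation follows from the choice.

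Of 37 cytokine and chemokine genes 10 had a gained and 3 a lost site, and 24 had neither. By sites, 10 of 120 were gained (8.33%, against 3.18% of all sites) and 6 lost (5.00%, against 4.74% of all sites), so that the lost share was near the background. Besides Ccl5, the site 9826 bp upstream of Il12b, the p40 subunit of IL-12 and IL-23, ranked 4068, 10628 and 8475 at 18 h and 46721 and 33554 in 0 h replicates 1 and 2. A site 18960 bp upstream of Ccl2, the main monocyte attractant, ranked 6451, 11654 and 9299 at 18 h and 40282 in 0 h replicate 1. Near Il1rn, the IL-1 receptor antagonist, the ranks at 18 h were 9006, 9394 and 18076. On the lost side, Csf1, the growth factor on which macrophages depend, had 3 lost sites within 55.4 kb, the best of which ranked 11169, 9613 and 12111 at 0 h and 28919 in 18 h replicate 3. The promoter of the chemokine Ccl6, 91 bp into the gene, ranked 12359, 17008 and 16611 at 0 h and was absent from every full 18 h list.

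Of 25 antimicrobial and metabolic effector genes, 5 had gained sites and 2 had lost ones, and by sites 8 of 125 were gained (6.40%) and 2 lost, against 3.18 and 4.74% of all sites. The promoter of Nos2, the inducible nitric oxide synthase, ranked 3835, 8001 and 6253 at 18 h and 40129 in 0 h replicate 1, and its window holds NF-kB and C/EBP motifs. An intronic site at Slc7a11, the cystine transporter, ranked 13773, 8185 and 12831 at 18 h. A distal site 293854 bp from the same gene was lost, ranking 15488, 18675 and 15038 at 0 h. At Gch1, which starts biopterin synthesis, a site 41139 bp downstream of the start ranked 24363, 20650 and 20630 at 0 h.

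Of 22 feedback and signalling regulators, which include inhibitors such as Socs and Dusp genes but also the TLR kinase Irak2, Stat factors and the ligands of PD-1, 8 had gained and 3 had lost sites. By sites 9.40% of 117 were gained and 5.98% lost, against 3.18 and 4.74% of all sites. The gained genes were Dusp1, Irak3, Irak2, Stat3, Ptpn1, Nlrc5, Pdcd1lg2 and Cd274. Pdcd1lg2 and Cd274, the neighbouring genes of the PD-1 ligands, had 3 and 2 gained sites, the best of which ranked 7641, 4963 and 5515 (near Pdcd1lg2) and 12058, 6978 and 9104 (in Cd274) at 18 h. The lost sites lay near Zc3h12a, an mRNA-degrading nuclease, Zfp36l1, an mRNA decay factor, and Tsc22d3, a glucocorticoid-induced gene. The Zc3h12a site ranked 16046, 12485 and 10480 at 0 h and was absent at 18 h. Of 20 genes of NF-kB subunits and inhibitors, 3 had gained and 3 had lost sites, and 15 had neither. By sites these were 4.17 and 3.13% of 96, near the 3.18 and 4.74% of all sites. The promoter of Traf1, an adaptor of TNF receptors, ranked 15288, 6363 and 13868 at 18 h and that of Tnip1, an inhibitor of NF-kB, 23833, 17442 and 19923. Tnfaip3, encoding the deubiquitinase A20, had 2 gained sites 62574 and 52881 bp upstream and 1 lost site 46911 bp downstream of its start. Nfkbia, encoding IkB-alpha, had a lost distal site with ranks of 16222, 18988 and 22350 at 0 h.

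Of 15 AP-1 family genes, 4 had gained sites, namely Atf3, Batf, Jdp2 and Fosl2, and 2 had lost ones, namely Atf3 and Batf3. By sites 4.88% of 82 were gained and 3.66% lost, again near the shares of all sites. The gained Atf3 site, 9258 bp upstream, ranked 16040, 8955 and 15876 at 18 h with no peak at 0 h, and the lost one, 41221 bp upstream, ranked 13023, 15806 and 14746 at 0 h and 28460 in 18 h replicate 2. A list of C/EBP factors and acute-phase genes, which also holds myeloid genes such as Marco, Il4ra, Clec4e and Clec4d, had 15 genes nearest to a site. Of these 6 had gained sites, namely Cebpb, Saa3, Hp, Orm1, the scavenger receptor Marco and the IL-4 receptor Il4ra, and 2 had lost ones, and by sites 13.3% of 60 were gained and 3.33% lost, against 3.18 and 4.74% of all sites. Orm1, encoding the acute-phase orosomucoid, had 3 gained sites, the best ranking 7104, 6523 and 7595 at 18 h. The site 6719 bp upstream of Hp, haptoglobin, ranked 10034, 16332 and 10502, and that 4057 bp upstream of Saa3, serum amyloid A, 15931, 14959 and 13450. The promoter of Slpi, an antiprotease, was lost, with ranks of 19252, 18652 and 18627 at 0 h. These counts are descriptions of the lists as chosen and were given no test.

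Among the best-ranked lost sites were those near Tiam1, Elmo1, Cttnbp2nl and Vcl. The site 33898 bp upstream of Tiam1 (chr16:90177091-90178288), a Rac exchange factor, ranked 3102, 2784 and 1837 at 0 h and 32630 in 18 h replicate 1. In an intron of Elmo1 (chr13:20207149-20209035), which activates Rac together with DOCK proteins, the ranks at 0 h were 4057, 3338 and 2331, with no peak in any full 18 h list. The site 37350 bp upstream of Vcl, the adhesion protein vinculin, ranked 6352, 7917 and 3625 at 0 h, and that upstream of Gna12, a G protein subunit, 6523, 8399 and 3503, both absent at 18 h. The site near Cttnbp2nl ranked 3767, 4731 and 2113 at 0 h but only just missed the kept peaks at 18 h, with ranks of 28574 and 27510 in replicates 1 and 3. Inpp5f, a phosphoinositide phosphatase gene, ranked 7796, 5125 and 6228 at 0 h, and Kcnj16, a potassium channel gene, 6726, 5903 and 7379. Cdkal1, Ap1b1 and Arhgap39 completed the 10 best.

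Of 211 sites of resident macrophage and lipid genes, 13 were lost (6.16%) and 7 gained (3.32%), near the 4.74 and 3.18% of all sites. Of the 39 genes, 9 had a lost and 7 a gained site, and 26 had neither. The site 209107 bp upstream of Klf4, a transcription factor of alternative activation, ranked 11003, 11887 and 10243 at 0 h and was absent at 18 h. In an intron of Ly96, the TLR4 partner MD-2, a site ranked 14653, 18080 and 17445 at 0 h. Klf4, Abca1, the cholesterol exporter, and Maf, a factor of resident macrophages, had sites of both kinds, with 1 gained and 2 lost sites for Klf4. The lost Abca1 site ranked 11294, 18315 and 23459 at 0 h and the gained one 12090, 17221 and 15244 at 18 h. Kept peaks covered 84.8, 82.9 and 75.4% of the 211 sites at 0 h and 60.2, 77.3 and 74.9% at 18 h, and 18 h replicate 1 was also the lowest over all sites.

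Of 29 cell cycle genes 3 had gained and 3 had lost sites, and 23 had neither. By sites 3.09% of 97 were gained and 4.12% lost, which is the level of all sites. E2f1, described above, had the best gained site of this list. The promoter of Myc, 47 bp upstream of its start, ranked 9574, 14062 and 12903 at 0 h and 30559 in 18 h replicate 3, and was lost. Of 20 nuclear receptor genes, 1 had a gained site (Rxra) and 3 had lost ones, or 1.47 and 4.41% of 68 sites, the lost share being near the 4.74% of all sites. The site 17655 bp upstream of Pparg, the receptor that drives lipid uptake genes, ranked 20395, 13559 and 16405 at 0 h.

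Among the nuclear receptors, the promoter of the targeted gene was itself lost. Nr4a1 (chr15:101254269-101274795) had a promoter peak at ranks of 13519, 13183 and 18148 in the KO 0 h lists and at 10390, 9705 and 7512 in the KO 1 h lists, and no promoter peak in any full KO 18 h list. In WT BMDMs the promoter peak ranked 9604, 12749 and 14099 at 0 h and 35289, 26136 and 22870 at 18 h. A promoter peak does not report on the deleted part of the gene and so does not check the genotype.

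Several genes had clusters of gained or lost sites. Id2, an inhibitor of differentiation factors, had 5 gained sites over 250.8 kb and none lost, the best of which lies 46568 bp upstream. Btg1, an antiproliferative gene, had 5 gained sites and 2 lost ones. Map4k3, a kinase of the MAPK cascade, had 4 gained sites within 27.8 kb. Rnf213, an interferon-responsive ubiquitin ligase, and Prex1, a Rac exchange factor, had 4 each, and Prex1 also had 1 lost. These genes were nearest to many sites, namely 17 for Id2, 15 for Btg1, 8 for Map4k3, 27 for Rnf213 and 20 for Prex1. On the lost side Ado had 4 sites, and Armc2, Arhgap22, Pde4d and Csf1 had 3 each, of 14 sites nearest to Ado, 8 to Armc2, 15 to Arhgap22, 15 to Pde4d and 7 to Csf1. Of the gained sites 11.3% had another gained site within 10 kb, and of the lost sites 4.69% had another lost one. How often sites in general have a neighbour at this distance was not counted, so these shares have no background.

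Both sets were distal. Of gained sites 4.89% lay within 1 kb of a protein-coding start (95% Wilson interval 3.72 to 6.40%) and of lost sites 16.6% (14.8 to 18.6%), against 32.6% of all sites. The median distance to a start was 17742 bp for gained, 13313.5 bp for lost and 7020.5 bp for all sites. Gained sites lay in introns in 51.6% and between genes in 40.3% of cases, lost sites in 41.6% and 38.1%. The 49 gained promoter sites included Ccl5, Acod1, Nos2 and Oasl1, and the 248 lost ones included Myc, Ccl6, Slpi and Nr4a1.

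Motifs were searched within 100 bp of the summit on both strands, namely AP-1 (TGANTCA), C/EBP (TTGCNNAA), the interferon-stimulated response element ISRE (GAAANNGAA), PU.1 (GAGGAAGT), the gamma-activated site GAS (TTCNNNGAA), the Nur77 element NBRE (AAAGGTCA), the cyclic AMP element CRE (TGACGTCA), NF-kB and CTCF. GAS letters can overlap an ISRE match. A match is a description of the sequence and not a binding site. NF-kB motifs were present at 9.57% of gained sites (7.90 to 11.6%), 2.34% of lost sites (1.69 to 3.24%) and 3.93% of all sites. C/EBP motifs were present at 18.6% of gained (16.4 to 21.2%), 9.84% of lost (8.43 to 11.5%) and 11.0% of all sites. The intervals cover counting over sites only, and those of gained and lost sites did not overlap for either motif.

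AP-1 motifs were found at 25.5% of gained, 18.2% of lost and 17.9% of all sites. Since promoters carry fewer AP-1 motifs, the same shares were taken over sites more than 1 kb from a start, where they were 26.3, 20.3 and 24.4%, so that gained sites were close to the background of distal sites and lost sites below it. At distal sites the C/EBP shares were 18.9, 10.4 (8.86 to 12.2%) and 13.7%, so that lost sites were below the distal background, and the ISRE shares 11.4, 6.66 and 8.63%. Over sites of any location ISRE motifs were found at 11.7% of gained and 6.09% of lost sites, against 7.28% of all. PU.1 motifs were less frequent at gained sites, with 5.78% of gained (4.50 to 7.40%), 9.51% of lost (8.12 to 11.1%) and 7.86% of all sites. CTCF motifs were found at 4 gained sites (0.399%) and at 3.21% of lost sites, against 2.88% of all sites. At distal sites alone PU.1 motifs were at 5.66% of gained (4.36 to 7.31%), 10.4% of lost (8.86 to 12.2%) and 10.2% of all sites, so that lost sites were at the background there. The NF-kB shares at distal sites were 9.43, 1.93 and 4.07% and the CTCF shares 0.419, 3.45 and 3.82% for gained, lost and all sites.

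**Figure D3:**
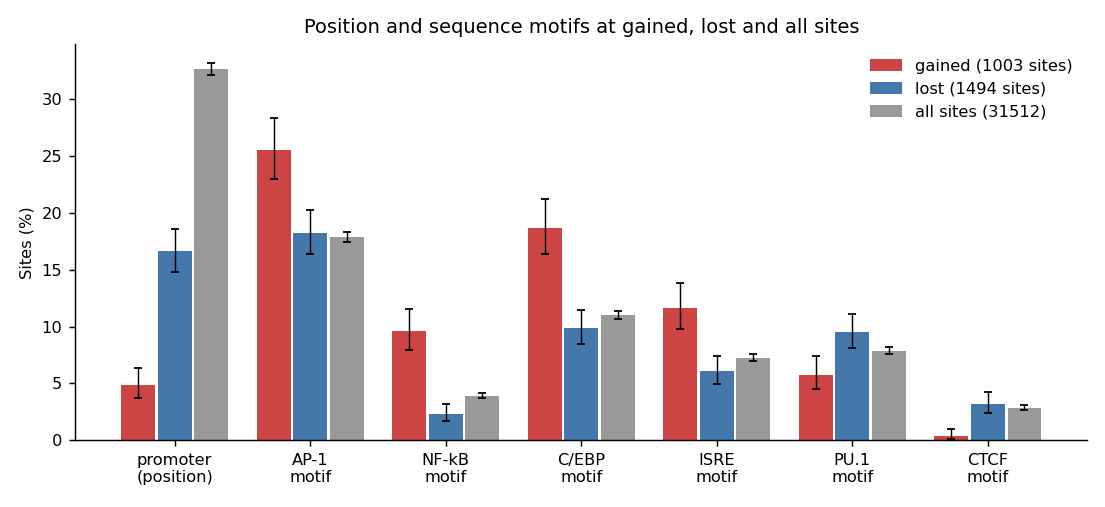
Percent of gained (red), lost (blue) and all sites (grey) within 1 kb of a start (promoter) or with each motif within 100 bp of the summit, with 95% Wilson intervals for counting over sites. NF-kB motifs are at 9.57% of gained and 2.34% of lost sites, and promoters at 4.89% and 16.6%.

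The shares were then compared over whole lists, where the list is the replicate and no site is chosen by gain or loss. With 3 against 3 lists the smallest 2-sided exact permutation p is 0.1, so no share could pass 0.05, and 10 shares were compared. NF-kB motifs were in 3.55, 3.52 and 3.36% of the kept peaks at 0 h and in 4.22, 4.48 and 4.59% at 18 h. Every 18 h list was above every 0 h list, and the means differed by 0.956 percentage points (3.48% ± 0.101 and 4.43% ± 0.191, SD, n = 3, exact permutation p = 0.1, adjusted p = 0.333). C/EBP motifs were in 10.2, 9.78 and 9.41% at 0 h and in 10.6, 11.0 and 11.6% at 18 h, again without overlap (difference 1.25 percentage points, exact permutation p = 0.1, adjusted p = 0.333). CTCF motifs were in 3.45, 2.98 and 2.43% at 0 h and in 2.38, 1.77 and 1.90% at 18 h, all lower at 18 h (difference -0.936 percentage points, exact permutation p = 0.1, adjusted p = 0.333). This separation was lost with the 10000 best peaks (difference -0.07, exact permutation p = 0.7).

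AP-1 motifs were in 16.9, 16.2 and 14.7% of kept peaks at 0 h and in 19.6, 15.0 and 17.01% at 18 h. Here the groups overlapped, and the highest value was that of 18 h replicate 1, the list with the narrow peaks (difference 1.29 percentage points, exact permutation p = 0.4, and 0.103 without that list). The shares of ISRE, PU.1, GAS, NBRE and CRE motifs and of promoters also overlapped between 0 and 18 h. NBRE motifs were in 0.954% ± 0.0256 of kept peaks at 0 h and 0.922% ± 0.0318 at 18 h (SD, n = 3).

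**Figure D4:**
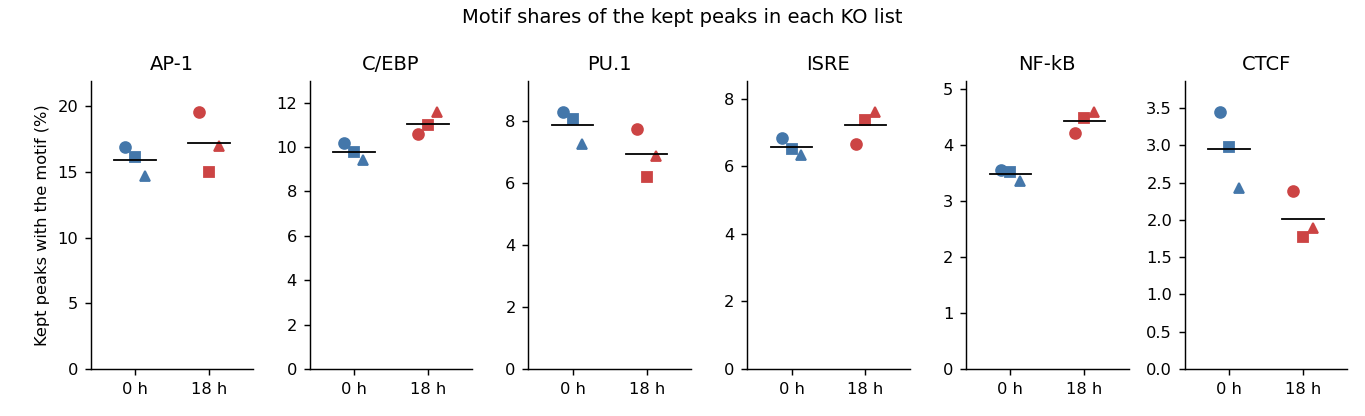
Percent of the 27429 kept peaks of each KO list with each motif within 100 bp of the summit, for untreated (blue) and 18 h LPS (red) lists, symbols by replicate and lines at the means. The 18 h lists lie above the 0 h lists for NF-kB (4.22 to 4.59% against 3.36 to 3.55%) and C/EBP, and below them for CTCF, while the AP-1 values overlap.

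The KO 1 h lists took no part in the choice of sites and placed the changes in time. Of the gained sites 45.6, 39.8 and 43.9% had a kept peak in the 1 h lists, against 74.4, 68.9 and 72.2% of all sites, and 306 sites had one in all 3 lists (early sites) and 447 in none (late sites). These states rest on kept peaks, and the full 1 h lists had a peak at 90.1, 50.1 and 66.8% of the gained and at 98.8, 67.1 and 86.2% of the lost sites. Ccl5, Acod1, Nos2, Ptges and Rbm47 were among those with a peak in all 1 h lists, whereas Ifit3 and Cmpk2 had none at 1 h. Of the 306 early sites 19.0% had an NF-kB (15.0 to 23.7%) and 30.7% an AP-1 motif (25.8 to 36.1%), and of the 447 late sites 4.03% (2.56 to 6.28%) and 19.7% (16.3 to 23.6%). C/EBP motifs were at 16.3% of the early and 19.5% of the late sites, with overlapping intervals. ISRE motifs were at 11.8% and 9.84%. Over all sites more than 1 kb from a start, those with a kept peak in every 1 h list and those with none held NF-kB motifs in 5.75 and 2.17% of cases (18.5 and 4.18% of such gained sites) and AP-1 motifs in 30.5 and 14.6% (32.2 and 20.2% of such gained sites).

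Lost sites were divided in the same way, with 526 of 1494 still holding a kept peak in all 3 KO 1 h lists and 397 in none. Of the 526 sites lost between 1 and 18 h, 30.4% held an AP-1 motif (26.6 to 34.5%), against 9.07% of the 397 sites already without a kept peak at 1 h (6.62 to 12.3%). The same contrast was seen in general, since at sites over 1 kb from a start AP-1 motifs were at 30.5% of all sites with a kept peak in every 1 h list and at 14.6% of those with none, against 33.4 and 9.38% of the lost sites. Tiam1, Elmo1, Vcl, Inpp5f and the Csf1 site with the best rank were of the first kind, and Ap1b1 was of the second. CTCF motifs were at 3.04 and 3.27% of these sites.

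The WT lists, which also took no part in the choice, had peaks at these sites in the same direction. Of the sites gained in KO, a kept peak was present at 8.28, 7.78 and 9.17% in untreated WT and at 89.1, 86.8 and 87.3% in WT after 18 h. The means were 8.41% ± 0.707 and 87.8% ± 1.21 (SD, n = 3), a difference of 79.4 percentage points with no overlap (exact permutation p = 0.1, the smallest possible), while over all sites the WT means were 81.4 and 80.02%. In the full WT lists the difference was 23.1 points, since 74.0, 74.0 and 80.7% of these sites had some peak in untreated WT. Of the sites lost in KO, 89.9, 87.1 and 92.4% had one in untreated WT and 27.2, 25.4 and 23.8% after 18 h, a difference of -64.3 percentage points (exact permutation p = 0.1) that was -17.6 in the full lists. Of the 1003 gained sites 793 had a kept peak in all 3 WT 18 h lists and 48 in none, and of the 1494 lost sites 180 had one in all 3, with Elmo1, Inpp5f, Cttnbp2nl and Ap1b1 among them, and 894 in none. In the full WT 18 h lists 985 gained and 1009 lost sites had a peak in all 3, and in the full WT 0 h lists 673 gained and 1493 lost sites did. The full WT 18 h lists hold 61492, 52204 and 46364 intervals, more than those of KO at 18 h, so full-list counts cannot be compared between genotypes. One gained site, near Gm21860 on the Y chromosome, had no peak in any full WT 18 h list. The WT differences thus lie mainly in whether a site was among the best peaks. The sites were picked on the KO lists, so their shares in KO follow from the choice. The size of the change therefore cannot be compared between KO and WT.

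**Figure D5:**
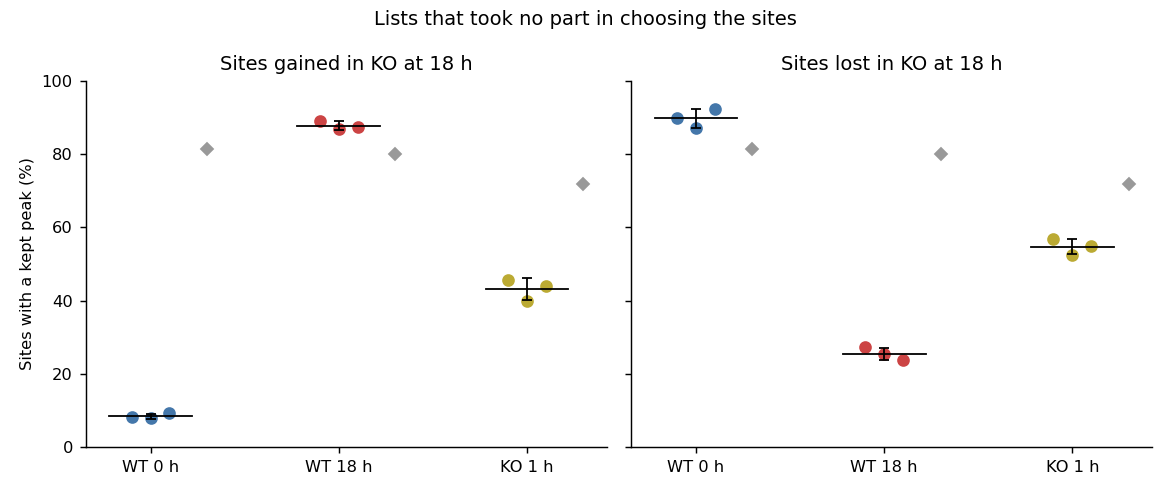
Percent of the sites gained (left) and lost (right) in KO at 18 h with a kept peak in WT 0 h, WT 18 h and KO 1 h lists. Points are lists, lines and bars the mean and SD of 3 lists, and grey diamonds the mean over all 31512 sites. WT 18 h lists have peaks at 87.8% of gained and 25.5% of lost sites, and KO 1 h lists lie in between at 43.1 and 54.7%.

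Whether the LPS response of the motif shares differed between KO and WT was tested directly, with 24389 peaks kept in each of the 12 lists and genotype labels exchanged within each time. NF-kB motifs changed by 0.953 percentage points in KO and by 1.21 in WT, a difference of -0.260 (2-sided exact permutation p = 0.3, adjusted p = 0.75). C/EBP motifs changed by 1.33 points in KO and 1.86 in WT (exact permutation p = 0.285, adjusted p = 0.75), and AP-1 motifs by 1.63 in KO and 0.256 in WT (exact permutation p = 0.375, adjusted p = 0.75). The mean AP-1 shares were 15.7% in KO and 17.3% in WT at 0 h, and 17.4% and 17.6% at 18 h. The mean of KO was thus below that of WT at 0 h and not above it at 18 h. None of the 10 shares passed an adjusted p of 0.05, and none had an unadjusted exact permutation p under 0.05 with all 12 lists and this number of peaks. The AP-1 difference of 1.38 points turned on single lists, being 2.44 (exact permutation p = 0.035) when KO 18 h replicate 2 was left out and 0.195 (exact permutation p = 0.88) when KO 18 h replicate 1 was left out, and it was 3.41 with the 10000 best peaks (exact permutation p = 0.05). Without KO 18 h replicate 2 the promoter difference was -1.43 (exact permutation p = 0.02), against -0.966 with all lists and -6.37 with the 10000 best peaks. Without KO 18 h replicate 1 the differences of GAS (0.253, exact permutation p = 0.03) and NBRE (0.10, exact permutation p = 0.02) were also under 0.05, unadjusted. None of these passes an adjustment over the 10 shares. This comparison was added after the data were seen.

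Sites open on both sides were described by their rank as a share of the length of the full list. Of 15555 sites with a peak in all 6 full lists, 33 (0.212%) ranked better at 18 h by a factor of at least 2 between the poorest 18 h and the best 0 h value, and 287 (1.85%) ranked poorer. The shift is given on the log2 scale, where 0 h divided by 18 h is above 0 for a better rank at 18 h. The lists differ in length, which enters this share, and the median shift of -0.42 over these sites was -0.15 with ranks among equal numbers of kept peaks (13668 sites). Without 0 h replicate 1, the longest list, 206 were better and 297 poorer. The imbalance of 33 against 287 did not hold on that scale either, where 168 were better and 156 poorer. Sites of the gene lists among them were named after their values were seen. The promoters of Rsad2 and Irf7, an antiviral enzyme and the interferon-induced IRF, were among the 33. Rsad2 ranked 12610, 18145 and 9922 at 0 h and 3182, 1281 and 1585 at 18 h, and Irf7 15300, 19138 and 11554 at 0 h and 3417, 2298 and 949 at 18 h. The median shift of 47 sites of interferon-stimulated genes was 0.58. A site 24148 bp from the start of Batf ranked 13431, 17009 and 21390 at 0 h and 2133, 1635 and 1489 at 18 h.

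In the opposite direction, the promoter of Cebpa, the C/EBP factor of myeloid differentiation, ranked 391, 474 and 327 at 0 h and 4252, 3262 and 3738 at 18 h. That of Cebpd ranked 3413, 4250 and 2627 at 0 h and 17862, 14210 and 16828 at 18 h, and that of Zfp36l1 4897, 2445 and 4092 at 0 h and 15831, 14536 and 17091 at 18 h. These 3 promoters, and those of Rsad2 and Irf7, met the same factor when ranks among the kept peaks were used. Of the 287 sites that ranked poorer 54.4% were promoters, near the 49.8% of all shared sites. The largest shifts were near Ly6c2, at ranks of 7122, 4136 and 6864 at 0 h and 10, 135 and 19 at 18 h, and near Gm10801, Rpusd4, Gm21738 and Stx3. Those in the other direction were near Gm21060, Gtpbp4, Myl12b, Tex44 and Rybp. Gm10801 ranked 1961, 140 and 57 at 0 h and 5, 6 and 7 at 18 h. For Rpusd4 the ranks were 525, 14 and 12, then 4, 3 and 4. Gm21060 went from 14, 8 and 8 to 708, 205 and 213. No filter for repeat or excess-signal regions was applied here, and whether these sites are such regions was not tested. Of the sites better and poorer by ranks among the kept peaks, 25 and 128 were shared with the sets above.

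The mean Jaccard index over all sites, shared sites divided by sites of either list, was 0.680 within and 0.583 between times (difference 0.0969, exact permutation p = 0.1, the smallest possible). Without 1 list the difference ranged from 0.0571 (KO 0 h replicate 2 left out) to 0.136 (KO 18 h replicate 2 left out). The 0 h lists carried this difference, with a mean of 0.752 against 0.608 for the 18 h lists. The 18 h list of narrow peaks shared less with 18 h replicate 2 (0.547) than with 0 h replicate 1 (0.554). Pairs across times reached 0.627. Every pair of 0 h lists was above this (0.722 to 0.804), but of the 18 h pairs only replicates 2 and 3 were (0.690).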

How the data were processed

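ATAC-seq of BMDMs was deposited as 1 peak list per sample, 17 in all, of which 15 were compared and the 2 of WT at 1 h only set the number of 24389 peaks. By the labels and methods the authors trimmed reads with cutadapt 2.6, mapped them to mm10 and ran the snakeATAC pipeline, and peak names carry a mapping quality of 20, removal of mitochondrial reads and duplicates, and a q-value threshold of 0.001. The peak caller is not given in the sources used here, and peaks were called per sample. The deposited columns are a score, a fold (ratio of the summit over background), and the −log10 p-value and −log10 q-value, all within a sample. The score and q-value were not used, and reads at the summit were recovered from the steps of the fold.

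Entries of 1 interval were collapsed to the highest −log10 p-value, 27429 peaks were kept per list, and ties were broken at random with seed 1. Sites overlapped a peak by at least 1 bp. One entry of KO 18 h replicate 1 gave no summit and its middle was used. Nearest genes are protein-coding genes of GENCODE M21 and sequences are from RefSeq GRCm38. Named sites were the 10 best mean ranks per direction called by intervals and by summit windows, the 5 best absent from the full lists of the other side, the 5 genes with most sites, the 5 largest rank shifts, and up to 4 genes of each list. The 10 gene lists (272 genes) and the sites were chosen with earlier results of these data known. Exact permutation tests used Python 3.11.15 with SciPy 1.17.1 and were checked on simulated lists. Precision is limited by 3 lists per group, and no read totals were given. Alternatives were other numbers of kept peaks, other overlap rules, narrower windows, a replicate block and leaving out each list.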

Additional observations from a re-analysis of the deposited data

How the results depend on the processing

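Counts of sites depended on the rule. With the 10000 best peaks 424 sites were gained and 525 lost, with all deposited peaks 291 were gained and 1904 lost, with a peak covering 50% of the site 140 were gained and 1450 lost, and with absence required in the full lists 192 were gained and 938 lost. Leaving out 1 list gave 1143 to 2067 gained and 1933 to 2365 lost sites, with 2067 gained without KO 18 h replicate 1, 1530 gained without KO 18 h replicate 2 and 2365 lost without KO 0 h replicate 3. Rank shifts at shared sites were unstable as well. Without 1 list 35 to 206 sites were better, the most without KO 0 h replicate 1. Poorer sites numbered 297 to 990, the most without KO 0 h replicate 3. Ranks among the kept peaks gave 168 better and 156 poorer sites. The alternatives for rank shifts and the comparison of KO with WT responses were chosen after the data were seen.

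The differences of NF-kB, C/EBP, CTCF, AP-1 and ISRE shares kept their sign under every alternative run. Their sizes did not: with the 10000 best peaks the CTCF difference was -0.07 (exact permutation p = 0.7, so the separation of the groups was lost), AP-1 3.78 and promoters -7.68 (exact permutation p = 0.1 for both). With 50 bp windows C/EBP was 0.675 (exact permutation p = 0.3) and CTCF -0.870 (p = 0.2). Without 1 list AP-1 ranged from 0.103 to 2.38, the lowest without KO 18 h replicate 1 and the highest without KO 18 h replicate 2, and promoters from -1.71 to -0.623. Only the NF-kB share stayed at the smallest p of 0.1 under every alternative but the replicate block. The promoter share was 4.10 percentage points higher at 18 h with all deposited peaks. With the 10000 best peaks the difference became 0.287 for PU.1 and 0.0967 for NBRE, and with all deposited peaks -0.110 for GAS and 0.126 for CRE. GAS was -0.0486 with 50 bp windows and -0.0383 to 0.222 without 1 list, and CRE was -0.145 to 0.0407. The KO minus WT responses turned at the 10000 best peaks for ISRE (0.477), C/EBP (0.497) and PU.1 (0.867), and without 1 list they ranged over -0.0970 to 0.0526 for CRE, -0.0506 to 0.253 for GAS, -0.0704 to 0.224 for CTCF and -0.556 to 0.232 for PU.1. The cause was not tested. Deviations of same-numbered KO lists correlated at 0.1, -0.0249 and 0.0517, and those of other pairs at -0.108 to 0.0792. With 3 lists per group this cannot decide whether replicate numbers pair the lists. With a replicate block, a sign-flip test over 3 pairs cannot go under 0.25, and the paired difference of the NF-kB share stayed 0.956 with p = 0.25 by this exact permutation test. It changed no call. With 3 lists per group no share can pass 0.05, so these tests say nothing of stability, and weakly covered lists limit which sites can be seen.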
